A study of Bos taurus with 15 samples.

Results

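A group of 56 genes crossed their starting level after dexamethasone (DEX) in the bovine mammary gland: they were displaced one way at 24 h post-DEX and the opposite way at 72 h. Of these, 18 genes were below their 0 h level at 24 h and above it at 72 h, and 38 genes were above it at 24 h and below it at 72 h. They were taken from the 4795 genes, of 24616 identifiers in the table, whose normalized count averaged at least 4 over the 12 libraries of cows 2, 3 and 4. The change at a time point is the log2 of the normalized count plus 0.5 minus the same value at 0 h in the same cow, averaged over the 3 cows. A gene was kept where the 24 h and 72 h changes were each at least 0.5 and of opposite sign, where every cow had that sign at 72 h, and where the 12 h change was smaller than 4.3 in either direction. The 24 h and 72 h values therefore chose the genes, and they are described here without a test of their direction.

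Mammary tissue came from 4 non-pregnant Holstein cows in their second lactation, each given 40 mg of DEX by a single intramuscular injection, and all received local anesthesia and prophylactic ampicillin for the biopsies. There was no untreated cow, so the 0 h biopsy, taken just before the injection, served as the baseline of each animal. Cows 2, 3 and 4 had libraries at 0, 12, 24 and 72 h, and cow 1 had libraries at 0, 12 and 24 h. Cow 1 was taken as the animal that stopped ruminating and left the study, since it is the one with no library at 72 h. A different gland of the udder was biopsied at each time point, in the same order in every cow, so time since DEX and the gland sampled cannot be told apart. In whole tissue, fewer cells of a type and less RNA per cell cannot be told apart either. The libraries held 1804120 to 6228132 reads on genes, the shallowest being cow 4 at 0 h. The table lists Ensembl identifiers without symbols and 0 of them could be matched to a name, so genes are given by identifier or by their values, the roles of the genes are not described, and the tissue was not checked against marker genes.

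DEX is a synthetic glucocorticoid. It binds the glucocorticoid receptor, which then enters the nucleus and raises the transcription of some genes and lowers that of others. Lactating mammary epithelium depends on glucocorticoids, together with prolactin, for the expression of milk protein genes, while a high dose transiently lowers milk output.

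At 12 h most of the genes that ended lower were already above their 0 h level, while those that ended higher lay on either side of it; the sets were not tested against each other. Among the 38 genes lower at 72 h, the median change was 0.73 at 12 h, 0.88 at 24 h and -0.69 at 72 h, all on the log2 scale. At 12 h, 25 of them were at least 0.5 above the 0 h level, 13 lay within 0.5 of it and 0 were further below. Among the 18 genes higher at 72 h, the median change was -0.15 at 12 h, -0.72 at 24 h and 0.79 at 72 h. At 12 h, 5 of these were at least 0.5 below the 0 h level, 4 were at least 0.5 above it and 9 lay between. All of these changes were measured against the same 0 h libraries. Over the 4795 genes the median change was 0.07 at 12 h, 0.046 at 24 h and 0.024 at 72 h.

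The same course was seen in each library when the genes of a direction were averaged. For the genes higher at 72 h, the mean log2 level of cows 2, 3 and 4 stood at 3.74, 4.02 and 3.99 at 0 h, 3.18, 3.17 and 2.89 at 24 h and 4.47, 4.68 and 5.11 at 72 h. For the genes lower at 72 h it was 3.205, 3.53 and 3.56 at 0 h, 4.33, 4.39 and 4.40 at 24 h and 2.601, 2.98 and 2.45 at 72 h. The 3 time points did not overlap in either set. The choice of genes favours such a separation, and nothing is read from it. At 12 h the first set stood at 3.87, 3.76 and 3.69, within or just under its 0 h range, while the second stood at 4.22, 4.39 and 4.38, already near its 24 h level.

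**Figure D1:**
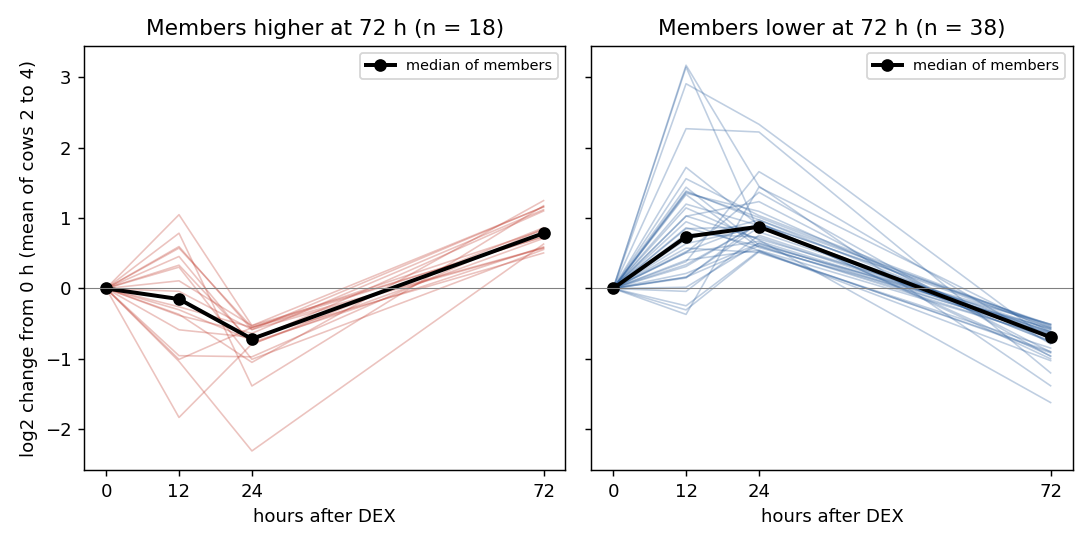
Log2 change from 0 h of each gene (thin lines, mean of cows 2 to 4) against hours after DEX, with the median of the genes in black; the left panel holds the 18 genes higher at 72 h and the right panel the 38 genes lower at 72 h. The thick line of the right panel is at 0.73 by 12 h, while that of the left panel is at -0.15 and reaches its low of -0.72 at 24 h.

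The displacements were modest. At 24 h the changes ran from -2.31 to -0.53 in the genes higher at 72 h and from 0.51 to 2.33 in those lower at 72 h. At 72 h they ran from 0.50 to 1.25 and from -1.62 to -0.51. Only 2 genes in each direction had changes of at least 1 on the log2 scale, a doubling or halving, at both time points. The threshold fell within a continuum. The 2 genes just inside it had 72 h changes of 0.50 and 0.55 in the higher direction and of -0.508 and -0.508 in the lower, and the 2 just outside had 0.49 and 0.46, and -0.4995 and -0.47. A single further gene met all else but was left out by the limit on the 12 h change. It changed by 4.45 at 12 h, 4.13 at 24 h and -2.09 at 72 h, a wider swing at 72 h than that of any gene kept.

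**Figure D2:**
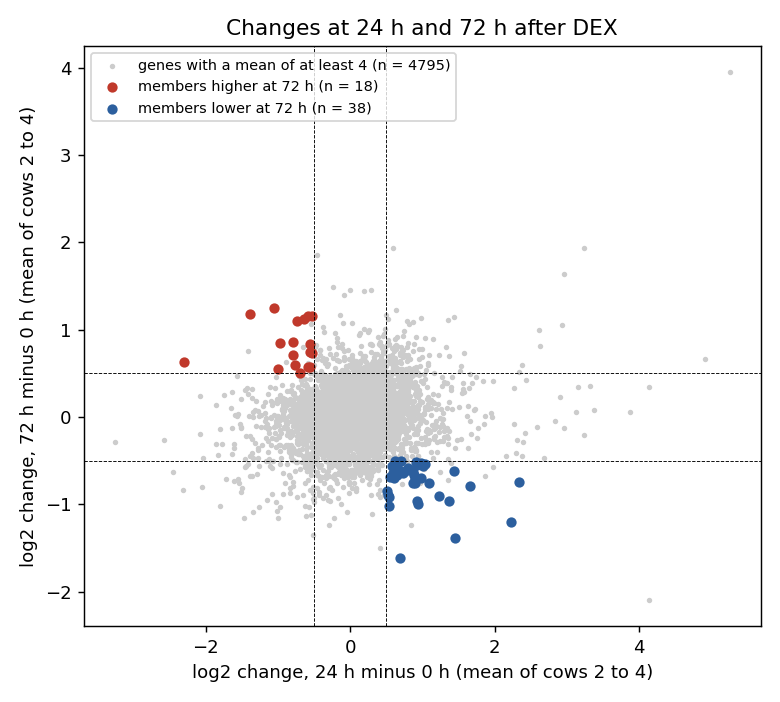
Change at 72 h against change at 24 h, both as log2 differences from 0 h averaged over cows 2 to 4, for the 4795 genes (grey); red points are the 18 genes higher at 72 h, blue points the 38 genes lower at 72 h, and dashed lines mark changes of 0.5. Grey points continue up to the dashed lines, and the grey point at the lower right is the gene left out by the 12 h limit.

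Gene by gene, the separation was less complete. The 3 libraries of 72 h lay wholly above those of 0 h in 13 of the 18 genes higher at 72 h, where 6.03% of the 4795 genes did so, and wholly below them in 19 of the 38 genes lower at 72 h, against 5.51%. At 24 h the libraries lay wholly below those of 0 h in 9 of the 18, against 11% of the 4795 genes, and wholly above in 27 of the 38, against 16.1%. Both held in 7 and 17 genes. The 72 h libraries were the highest of all 12 in 10 of the 18 and the lowest of all 12 in 18 of the 38. The rule chose on these contrasts, and the shares are given as a description. For both time points together and for all 12 libraries, the share over the 4795 genes was not counted. Nothing is read from those counts.

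Such genes were a small part of those displaced at 24 h. Of the 735 genes at least 0.5 above 0 h at 24 h, 38 (5.17%) were among the genes lower at 72 h, and of the 558 genes at least 0.5 below, 18 (3.23%) were among those higher at 72 h. Whatever their 24 h change, 219 of the 4795 genes met the 72 h condition for lower and 217 that for higher. Of these, 60 and 70 were at least 0.5 to the same side at 24 h as at 72 h, more than crossed. The 12 h limit was not applied to these counts, and nothing is read from the shares. The abundance of the 56 genes was ordinary. The median of the mean normalized count was 11.6 for the genes higher at 72 h and 11.4 for those lower at 72 h, against 13.2 over the 4795 genes, with a range of 4.03 to 148 in the first group and of 4.17 to 419 in the second. At least 10 normalized counts were reached by 10 of the 18 and 23 of the 38. In 13 of the 18 and 22 of the 38 every library of cows 2 to 4 held 10 reads or more. In the other 16 genes lower at 72 h, a 72 h library held fewer than 10 reads. A 0 h library, the baseline of the changes, held fewer than 10 reads in 4 of the 18 and 12 of the 38.

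The division between the directions depends on how the libraries are scaled. With the authors' normalization 18 genes were higher and 38 lower at 72 h. When libraries were scaled to their totals less the 20 most abundant genes, 35 were higher, including all 18, and 24 were lower, all of them among the 38. That scaling moved the median of the 4795 genes at 24 h from 0.046 to -0.105 on the log2 scale. With quantile normalization 18 genes were higher and 34 lower, of which 15 and 33 were among the 18 and 38.

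In the tests over all 13525 genes with a read in cows 2 to 4, few of the 56 differed from 0 h. At 24 h, 10 of them passed an adjusted p of 0.05 in limma, 9 above 0 h among the genes lower at 72 h and 1 below it among the genes higher at 72 h. Of all genes tested, 1.53% were called higher and 0.776% lower at 24 h. At 12 h, 13 passed, 12 above 0 h among the genes lower at 72 h and 1 below it among those higher at 72 h, where 2.27% of all genes were called higher and 1.61% lower. With cow as a fixed term in place of an estimated correlation, 16 passed at 24 h, where 421 of all 13525 genes did, against 312 in the main fit. Without cows 2, 3 and 4 in turn, 7, 8 and 9 passed at 12 h, and 4, 3 and 2 at 24 h. Of all genes tested, 203, 168 and 195 passed at 12 h in those fits, and 78, 79 and 99 at 24 h. The 56 came from the 4795 genes with a mean of at least 4, so the shares over all genes tested have a wider base. The rule used these contrasts, so nothing is read from the shares.

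At 72 h, 0 of the 56 genes passed an adjusted p of 0.05 in limma against 0 h, as did 0 of all genes (0%). An unadjusted p under 0.05 was found for 14 of the 18 genes higher at 72 h and 25 of the 38 lower at 72 h, where 3.73% of all genes tested had such a p with a higher level and 3.15% with a lower one. Without cow 4 such a p was found for 3 of the 18 and 6 of the 38. In edgeR, run on recovered reads with its quasi-likelihood test, 10 passed, 6 higher and 4 lower, where 0.407% of 13525 genes were called. In DESeq2 3 passed, 2 higher and 1 lower, where 2.25% of the 1201 genes given an adjusted p were called. Not all of the 56 were among the 1201, as ENSBTAG00000002826 and ENSBTAG00000002412 were given none. In DESeq2 the count and the share therefore have unlike bases. The limma and edgeR shares are over all 13525 genes, while the 56 came from the 4795 with a mean of at least 4. The rule chose the genes on the 72 h change, so nothing is read from how many of them passed.

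The step from 24 h to 72 h spanned both displacements. Between these time points 15 of the 18 genes higher at 72 h and 34 of the 38 lower at 72 h passed in limma, where 1.18% of all genes were called higher and 2.39% lower. All 56 passed in edgeR and 53 in DESeq2, where 7.3% and 10.4% of the genes given an adjusted p were called. The rule fixes the direction of this contrast too. It also sets a least size for it, since the 24 h and 72 h changes each had to reach the threshold with opposite signs. Nothing is therefore read from how many of the 56 passed. Without cow 2, 16 of the 56 passed between 24 h and 72 h, without cow 3 28 and without cow 4 16. Of all genes tested, 103 of 12987, 176 of 12979 and 135 of 13047 passed in these fits, against 482 of 13525 in the main fit.

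Among the genes lower at 72 h with at least 10 normalized counts on average and every cow above 0 h at 24 h, ENSBTAG00000002826 had the largest crossing, taken as the smaller of its 24 h and 72 h changes. It reached that average through its 12 h libraries, whose mean was 31.3, against means of 3.23, 9.60 and 0.941 for 0 h, 24 h and 72 h. The gene thus met the limit on abundance through its 12 h level, and its 12 h change and p-value are a description. It had 1.76, 3.31 and 4.63 normalized counts at 0 h in cows 2, 3 and 4, then 30.4, 30.4 and 33.3 at 12 h, 9.17, 13.4 and 6.20 at 24 h and 1.63, 0.774 and 0.418 at 72 h. The 12 h and 24 h libraries were all above those of 0 h, and the 72 h libraries all below. Relative to 0 h the fitted log2 change was 3.17 at 12 h (adjusted p = 5.19e-05 in limma, standard error 0.37) and 1.45 at 24 h, with an adjusted p of 0.0491 in limma. At 72 h it was -1.38 (adjusted p = 0.532 in limma). The 72 h values rested on 4, 5 and 2 reads, and that of cow 4 was under the 0.627 normalized counts that 3 reads are worth in that library. The gene was nearly level in cow 2 at 72 h, with a log2 change of -0.082 against -1.58 in cow 3 and -2.48 in cow 4. Without cow 4 the fitted change at 72 h was -0.83, and without cow 2 it was -2.03. At 24 h the adjusted p in limma was 0.329 without cow 2, 0.363 without cow 3 and 0.0538 with no block for the cow, and it passed in 8 of the 14 alternatives. In cow 1 the gene started at 1.79 and reached 44.7 by 12 h, and it was still at 17.1 at 24 h.

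ENSBTAG00000037778 had the next largest crossing and was far more abundant. In cows 2, 3 and 4 it had 104.7, 236 and 38.8 normalized counts at 0 h, 477, 491 and 467 at 12 h, 389, 641 and 397 at 24 h and 31.8, 83.6 and 29.3 at 72 h. The cows were spread over a wide range at 0 h and came together at 12 h, where the mean was 478 ± 12.2 (SD, n = 3 cows) against 127 ± 100.5 at 0 h. The 72 h libraries overlapped those of 0 h, because cow 4 started at 38.8 and cow 3 ended at 83.6, although each cow ended below its own start. The fitted log2 change was 2.27 at 12 h (adjusted p = 0.0066 in limma, standard error 0.45) and 2.22 at 24 h, where the adjusted p was 0.0126 in limma. It was -1.20 at 72 h, with an adjusted p of 0.643 in limma. The 72 h log2 changes of cows 2, 3 and 4 were -1.70, -1.49 and -0.40, and in cow 4 the 0 h value rested on 67 reads. Cow 1 had 136 at 0 h, 472 at 12 h and 297 at 24 h, so its 12 h value also lay close to the other three. The adjusted p at 72 h was 6.07e-10 in edgeR and 0.0962 in DESeq2. In limma the 12 h call was lost without cow 2 (adjusted p = 0.165) and without cow 4 (adjusted p = 0.0936), and the 24 h call likewise (adjusted p = 0.208 and 0.124). The fitted log2 changes were then 2.31 at 12 h and 2.39 at 24 h without cow 2, no smaller than with all cows, and 1.62 and 1.66 without cow 4. From 24 h to 72 h the log2 change was -3.42 (adjusted p = 2.71e-04 in limma), and -3.34 without cow 2 (adjusted p = 0.0644 in limma).

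ENSBTAG00000002412 had the largest crossing by the same measure, and under the same limits on abundance and on cows, among the genes higher at 72 h. Its normalized counts in cows 2, 3 and 4 were 10.1, 13.2 and 6.37 at 0 h, 16.1, 12.5 and 11.4 at 12 h, 6.24, 5.76 and 4.04 at 24 h and 15.5, 19.2 and 18.6 at 72 h. The 24 h libraries all lay below those of 0 h and the 72 h libraries all above. Relative to 0 h the fitted log2 change came to -0.79 at 24 h (adjusted p = 0.154 in limma, standard error 0.26) and 0.86 at 72 h (adjusted p = 0.623 in limma). From 24 h to 72 h it was 1.66 (adjusted p = 0.00136 in limma). This rise passed the threshold in each of the 14 alternatives run. The gene was picked on its 24 h and 72 h changes, so these passes are a description. The same holds for the other genes given by identifier. The shallow 0 h library of cow 4 held 11 reads of the gene, and without cow 4 the 72 h change was 0.56. In cow 1, which was not used to choose the gene, it had 7.67 normalized counts at 0 h, then 12.7 and finally 3.52 at 24 h, below every 24 h value of the other cows.

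ENSBTAG00000005012 was set apart by a single library. Its normalized counts in cows 2, 3 and 4 were 25.5, 19.2 and 25.5 at 0 h, 19.8, 19.9 and 16.6 at 12 h, 11.9, 14.3 and 15.1 at 24 h and 29.8, 30.2 and 141 at 72 h. The 72 h libraries were all above those of 0 h, but cow 4 stood at 141 with 674 reads while cow 2 and cow 3 were at 29.8 and 30.2. Cow 1 had 27.4 at 0 h and 10.4 at 24 h, the lowest of the 24 h values. Its fitted 72 h change was 1.10 on the log2 scale (adjusted p = 0.643 in limma, standard error 0.40), and without cow 4 it was 0.43. In edgeR the adjusted p at 72 h was 4.29e-06, and in DESeq2 it was 0.263. From 24 h to 72 h the log2 change was 1.84 (adjusted p = 0.0132 in limma). Without cows 2, 3 and 4 in turn, the adjusted p in limma was 0.122, 0.0531 and 0.0376. Without cow 4 this log2 change was 1.17.

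**Figure D3:**
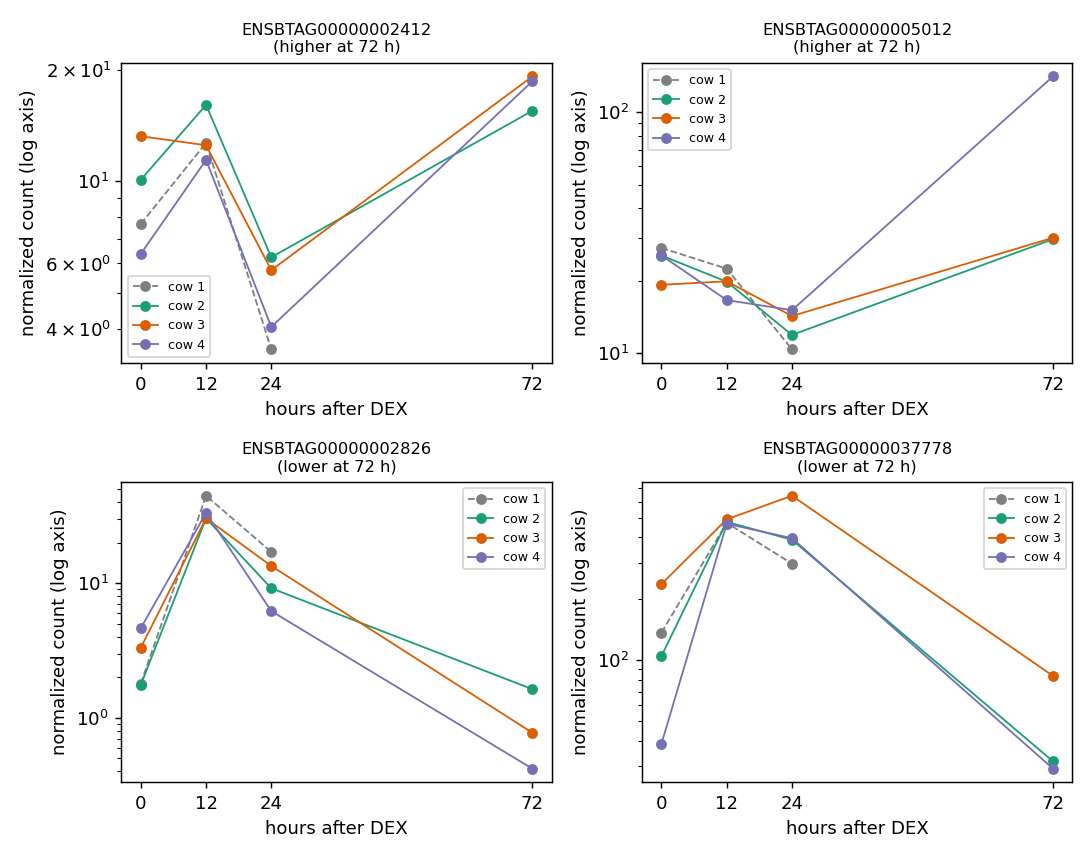
Normalized count (log axis) against hours after DEX of the 4 genes given by identifier, a line for each cow; cow 1, dashed, has no library at 72 h. In ENSBTAG00000005012 the 72 h point of cow 4 is at 141 and those of cows 2 and 3 at 29.8 and 30.2, while in ENSBTAG00000037778 the 12 h points lie between 467 and 491.

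Other genes lower at 72 h, given without identifiers, differed in how long they stayed above their start. The most abundant had 146, 294 and 381 normalized counts at 0 h in cows 2, 3 and 4, 605, 590.0 and 770 at 12 h, 358, 480.1 and 933 at 24 h and 124, 209 and 132 at 72 h. It was lower at 72 h than at 0 h in each of these cows, though only narrowly in cow 2. Cow 1 had 261 at 0 h, 439 at 12 h and 237 at 24 h, so there it was below its start by 24 h. Another had lost most of its 12 h level by 24 h. It had 18.9, 21.1 and 35.3 at 0 h, 179, 272 and 212 at 12 h, 45.9, 33.7 and 49.6 at 24 h and 13.0, 20.6 and 15.1 at 72 h. In cow 1 it was at 24.0, 254 and 17.9 over the first 3 time points, again below its start by 24 h. The last kept more of its 12 h level in cows 2, 3 and 4 but not in cow 1. It had 3.95, 13.5 and 5.79 at 0 h, 44.1, 52.7 and 69.5 at 12 h, 28.6, 35.6 and 47.2 at 24 h and 2.45, 5.26 and 4.39 at 72 h, and in cow 1 it had 11.8 at 0 h, 46.2 at 12 h and 11.6 at 24 h. In cow 1, then, none of these 3 genes was above its start at 24 h. These genes were picked after their values had been seen.

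Cow 1 was not used to choose the genes and gives a separate measurement at 24 h. Of the 18 genes chosen as lower at 24 h, 17 (94.4%) were lower at 24 h in cow 1, and of the 38 chosen as higher, 33 (86.8%) were higher. Over the 4795 genes, 53.4% were lower and 46.6% higher at 24 h in cow 1. Among all genes with an equally large change at 24 h in cows 2 to 4, whatever they did at 72 h, cow 1 was on the same side in 456 of 558 (81.7%) and 572 of 735 (77.8%). The median change in cow 1 was -0.95 in the genes higher at 72 h and 0.72 in those lower at 72 h. Since they come from a single animal and genes do not vary independently, the shares are given with no interval. Cow 1 has no library at 72 h and says nothing of the overshoot itself.

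A few of the genes higher at 72 h were much lower at 24 h in cow 1 than in the other cows. In 4 of them, picked after their values had been seen, the normalized count in cow 1 went from 34.5 to 0.168, from 48.3 to 2.35, from 195 to 18.3 and from 76.5 to 7.20 between 0 h and 24 h. The first of these ended on 1 read. In cow 2 the same 4 genes went from 16.5 to 27.9, from 20.2 to 20.7, from 161 to 147 and from 53.8 to 55.0, so the largest decrease there was that from 161 to 147. Cows 3 and 4 lay between. The first gene had 10.2 and 19.1 normalized counts at 24 h in cows 3 and 4, against 35.8 and 30.1 at 0 h. All 4 genes were above their 0 h level at 72 h in cows 2, 3 and 4, as the rule requires.

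**Figure D4:**
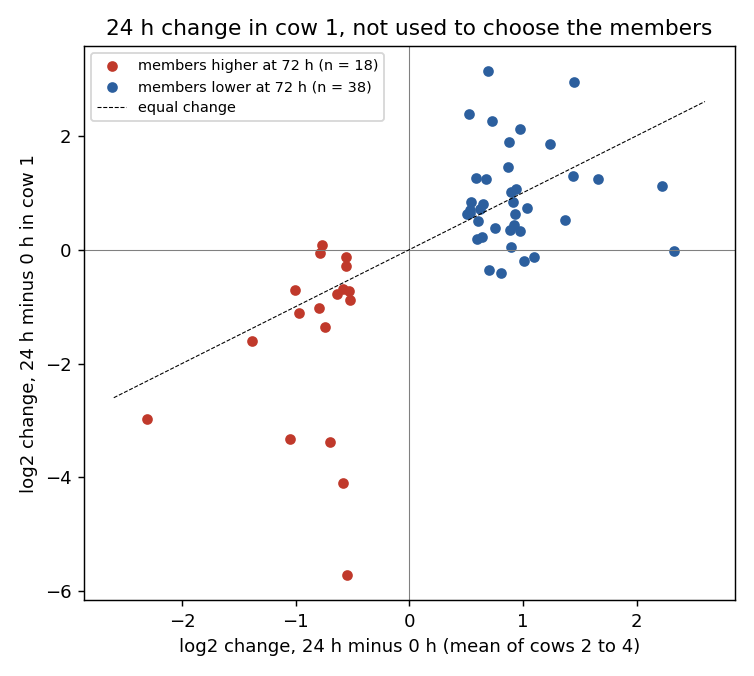
Change at 24 h in cow 1 against the mean change at 24 h in cows 2 to 4, both as log2 differences from 0 h, for the 18 genes higher at 72 h (red) and the 38 lower at 72 h (blue); the dashed line marks equal change. Red points lie below 0 in 17 of 18 genes and blue points above 0 in 33 of 38, and 4 red points lie far below the line.

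For 72 h, a separate measurement was had by applying the rule to a pair of cows and reading the third. Of the genes so chosen as higher at 72 h, 28 of 42 were above 0 h at 72 h in cow 2, 17 of 27 in cow 3 and 12 of 20 in cow 4. The shares were 66.7%, 63.0% and 60.0%, where 48.2%, 56.8% and 51.9% of the 4795 genes were above 0 h in the same cows. Of those chosen as lower at 72 h, 37 of 48 were below 0 h in cow 2, 38 of 53 in cow 3 and 25 of 29 in cow 4. Here they were 77.1%, 71.7% and 86.2%, against 51.7%, 43.2% and 48.1% of the 4795 genes. For the genes chosen as higher, the shares in cows 3 and 4 lay near those of all genes, a matter of a few genes, and nothing is read from them. The shares for the genes chosen as lower stood further from those of all genes in each cow. Genes of an animal do not vary independently, so no interval or test is given. These are not the 56 genes themselves, since a gene chosen in only 2 cows need not meet the rule in all 3. Taking 24 h and 72 h together, the held-out cow was on both chosen sides in 15 of 42, 12 of 27 and 10 of 20 genes chosen as higher at 72 h, and in 34 of 48, 35 of 53 and 18 of 29 chosen as lower. That is 35.7%, 44.4% and 50.0% against 18.2%, 23.4% and 18.0% of the 4795 genes, and 70.8%, 66.0% and 62.1% against 26.4%, 18.2% and 19.6%. At 24 h alone, the genes chosen as higher were on the chosen side in 66.7%, 81.5% and 90.0%, against 43.5%, 48.5% and 46.4%. For the genes chosen as lower it was 93.75%, 92.5% and 75.9%, against 56.5%, 51.5% and 53.5%. The joint shares include the 24 h side, so for the genes chosen as higher nothing about 72 h is read from them. The sizes were smaller than in the cows used to choose. The median 72 h change in the held-out cow was 0.26, 0.29 and 0.23 for genes chosen as higher, and -0.33, -0.13 and -0.88 for genes chosen as lower. The order of the glands biopsied was the same in every cow, so here too the time and the gland cannot be told apart.

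**Figure D5:**
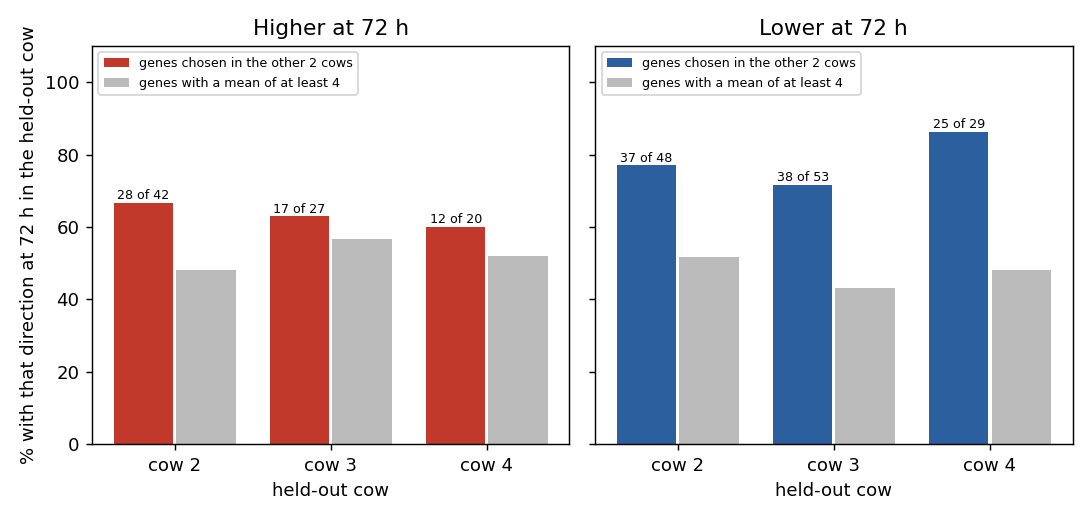
Percentage of genes above 0 h (left) or below 0 h (right) at 72 h in the held-out cow, for genes chosen by the rule in the other 2 cows (coloured bars, with counts) and for the 4795 genes (grey bars). The coloured bars run from 60.0% to 66.7% on the left and from 71.7% to 86.2% on the right, each above its grey bar.

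The displacement at 72 h was largest in cow 4. It had the largest 72 h change of the 3 cows in 36 of the 56 genes (11 of 18 and 25 of 38), against 48.2% of the 4795 genes. Its median 72 h change was 1.08 in the genes higher at 72 h, against 0.65 in cow 2 and 0.57 in cow 3, and -1.15 in those lower at 72 h, against -0.56 and -0.42. The 0 h library of cow 4 was the shallowest of all, with 1804120 reads, and the median size of change over the 4795 genes was 0.39 in cow 4, against 0.28 in cow 2 and 0.25 in cow 3. Without cow 4 the rule chose 20 genes as higher, 7 of them among the 18, and 29 as lower, 17 of them among the 38. With every library thinned to the depth of the shallowest, a setting chosen after seeing the data, it chose 20 as higher, 10 of them among the 18, and 40 as lower, 24 of them among the 38.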

How the data were processed

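RNA of mammary biopsies was sequenced as 3′ tag libraries, in which reads come from transcript ends. Per the study's methods, the authors trimmed reads with HTStream, aligned them with STAR (version 2.6.0c, also in the submitters' processing notes) to the UMD3.1 genome, counted reads per Ensembl gene and deposited normalized counts, a signal scaled for each library. The scaling method is not given in the sources used here. Each library's smallest value above 0 was taken as the worth of 1 read, and after division by it 100% of values were whole within 0.01 reads. Counting limits cover counting error only.

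The 56 genes and all lists were chosen with earlier results of these data known. Gene lists by symbol were not used here, since 0 identifiers matched the annotation table (assembly ARS-UCD2.0). Printed identifiers were the 2 genes per direction with the largest smaller value of the 24 h and 72 h changes, among those with a mean of at least 10 and all 3 cows also on 1 side at 24 h.

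Differential expression was tested with limma (version 3.58.1, R 4.3.3), with a trend, on log2(normalized count + 0.5), over 12 libraries with time point as factor, within-cow correlation from duplicateCorrelation (0.0179) and Benjamini-Hochberg adjustment over 13525 genes. Fold changes on this scale understate the change of low genes. The same animals recur at each time point, so cow numbers pair the samples: deviations of libraries of a cow correlated in 18 of 18 pairs (lowest 0.149). No 2 libraries of a time point agreed within sampling noise. Alternatives used edgeR (version 4.0.16), DESeq2 (version 1.42.0) and limma-voom on recovered reads, the first pair with cow as a fixed term and limma-voom on genes totalling at least 4 normalized counts.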

Additional observations from a re-analysis of the deposited data

Results flagged for a closer look

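At 0 h, cow 2 stood apart from the other cows in the average log2 level of the 18 genes higher at 72 h, at 3.74 against 3.99 to 4.02 in cows 1, 3 and 4 (gap over range 0.887). Of the 18 groups of 4 libraries examined, 1 passed Dixon's limit, and about 0.9 would by chance.

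In 12 of the 18 genes higher at 72 h and 35 of the 38 lower at 72 h, every one of cows 2, 3 and 4 was displaced one way at 24 h and the other way at 72 h. The rule asked every cow to agree at 72 h but used only the mean of the cows at 24 h, so it fixed this in part. The difference was not tested beyond the comparison of 24 h with 72 h given above.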

How the results depend on the processing

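The number of genes chosen stayed within 1.5 times in most alternatives. It was 20 lower genes with a pseudocount of 2, 10 higher and 23 lower with a mean of at least 10, 38 higher with no minimum and, with totals without the 20 most abundant genes, 35 higher and 24 lower. Leaving out a cow gave 20 to 42 higher and 29 to 53 lower genes. The share of held-out genes on the chosen side at 72 h, 71.7%, went to 77.5% (pseudocount 2) and 76.6% (mean of at least 10). This share pools 57 of 89 genes chosen as higher with 100 of 130 chosen as lower, and a gene can be counted for several cows. The shares of all genes are given above for each cow. Of the 56 genes, those called at 24 h numbered 10, but 16 with cow as a fixed term (the replicate block), 17 where genes averaging under 4 were dropped, 28 with edgeR and 19 with DESeq2, and 2 to 4 without a cow. Of all genes tested, 312 of 13525 were called at 24 h. In the same settings 421 of 13525, 446 of 4795, 630 of 13525 and 418 of 5921 were called, and 78 to 99 without a cow. Those called at 12 h numbered 13, but 25 with edgeR, and 7 to 9 without a cow. Of all genes tested, 525 were called at 12 h, 907 with edgeR and 168 to 203 without a cow. Those called at 72 h against 0 h numbered 0, but 10 with edgeR and 3 with DESeq2, and 0 without any one cow. Of all genes tested, 0 were called at 72 h, 55 of 13525 with edgeR, 27 of 1201 with DESeq2 and 0 to 1 without a cow. Those called at 72 h against 24 h numbered 49, and 16 to 28 without a cow, where 482 of all genes were called, and 103 to 176 without a cow. Without the replicate block the counts at 12, 24 and 72 h against 0 h were 13, 7 and 0, and 48 for 72 h against 24 h. Over all genes they were then 501, 280 and 0, and 459 for 72 h against 24 h. Since calls over all genes shifted too, nothing particular to the 56 genes is read from these counts. Fits without a cow rest on fewer samples, and the cause of the other shifts was not tested. For the 4 identifiers, 205 values kept their direction and side of the threshold, 13 no longer passed, 4 newly passed and 0 reversed. Depth was low for 16 of the 38 lower genes, which had under 10 reads in a 72 h library. A 0 h library had under 10 reads in 12 of the 38 lower and 4 of the 18 higher genes.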
